A study of Mus musculus with 24 samples.

Results

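The 8 genes described here encode receptors for sphingosine 1-phosphate (S1P) and lysophosphatidic acid (LPA): S1pr1, S1pr2, S1pr3, Lpar1, Lpar2, Lpar3, Lpar4 and Lpar6. They were measured among 14489 genes on 24 Affymetrix arrays of MLO-Y4 cells, a mouse osteocyte-like line made from long bones of a mouse whose SV40 large T antigen was driven by the osteocalcin promoter. All arrays therefore come from 1 immortalised line. The group was selected on measured values of these same arrays: S1pr1 and Lpar6 were picked because they were lower in the ug position, and the other receptors were set beside them. Every receptor value below that uses ug arrays is for that reason a description, with no test.

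S1P and LPA are small lipids of blood and tissue fluid that act through G protein-coupled receptors on the cell surface. The S1P receptors and Lpar1, Lpar2 and Lpar3 form one receptor family, while Lpar4 and Lpar6 belong to the P2Y-like branch. In bone, S1P steers the movement of osteoclast precursors, and LPA promotes the outgrowth of dendrites in MLO-Y4 cells. Both lipids pass signals through the inhibitory G proteins, through the G proteins that activate phospholipase C and through those that activate RhoA.

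The study asked how a high magneto-gravitational environment changes gene expression in these cells and whether hemichannels made of the gap junction protein Cx43 take part. The cells received for 30 min, at 37 degrees and 5% CO2, one of 2 rabbit antibodies diluted 1 to 50: an irrelevant IgG (the IgG arm), or Cx43(E2) at 28 µg/ml, which blocks those hemichannels (the E2 arm). In each arm, cells were then kept in an incubator (C) or at one of 3 positions on the magnet platform, with an effective gravity of 1g, 2g or near weightlessness (ug). The 8 groups hold 3 arrays each, and the sample titles carry a number from 1 to 3 within each arm. Arrays with the same arm and number, 4 at a time, are called a title set here (IgG 2, for example). Nothing in the labels says whether replicates came from separate cultures, so p-values measure only the spread between these arrays.

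Levels are the deposited log2 values of 1 probe set per receptor, and they are compared between arrays within a gene, never between genes. Each receptor had 1 probe set. A gene was tested when its probe set reached the 40th percentile of its array, which lay between 5.90 and 6.08, on at least 3 arrays, and all 8 receptors met this. S1pr1, S1pr2, S1pr3, Lpar1, Lpar2 and Lpar6 reached it on 24 of 24 arrays, Lpar4 on 6 and Lpar3 on 3. The osteocyte markers fitted the label in part. Of 8 listed markers 5 were tested, with a mean level between 9.48 and 9.56 in the 8 groups. These were Pdpn (mean level 12.70), Gja1 (11.68), Cd44 (9.08), Sost (7.07) and Fgf23 (7.04). Dmp1, Mepe and Phex did not reach the percentile. Of markers of other cells that use these receptors, the tested endothelial markers (4 of 6; Kdr and Emcn not past the filter) had group means between 6.01 and 6.21. The tested lymphocyte marker (1 of 4) had group means between 6.27 and 6.56, and the tested macrophage markers (2 of 4) between 7.66 and 7.88. The tested osteoblast markers (2 of 5) had group means between 9.97 and 10.14. The means of these lists average different genes, so they do not rank the cell types. The endothelial gene Pecam1 had a mean level of 5.82, below the range of the percentile. It differed by 0.29 ± 0.07 (SE) between ug and the mean of the other environments. The other tested endothelial markers differed by 0.07 ± 0.04 (Tek), -0.08 ± 0.05 (Cdh5) and -0.04 ± 0.04 (Tie1). The part of Pecam1 in the receptor values was not tested. Gja1, which encodes Cx43, lay between 11.37 and 12.00 on all 24 arrays, and the antibody acts on the protein, so its RNA does not check the labels.

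S1pr1, the S1P receptor that couples to the inhibitory G proteins and is known for lymphocyte exit and blood vessel integrity, was lower at ug than in the incubator in both arms. Its log2 levels at C, 1g, 2g and ug were 10.19, 10.06, 10.19 and 10.11 in set IgG 1. They were 10.20, 9.98, 9.70 and 9.99 in set IgG 2. They were 10.44, 10.56, 10.39 and 9.91 in set IgG 3. The IgG ug arrays thus all lay below the IgG C arrays, but in set IgG 2 the 2g array was the lowest. With the E2 antibody the levels were 10.45, 10.15, 10.19 and 9.82 in set E2 1. They were 10.42, 10.53, 10.48 and 10.08 in set E2 2. They were 9.80, 9.66, 9.70 and 9.52 in set E2 3. The ug array was the lowest of its set in all 3 E2 sets, and the E2 C and ug ranges overlapped because set E2 3 was low throughout.

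**Figure D1:**
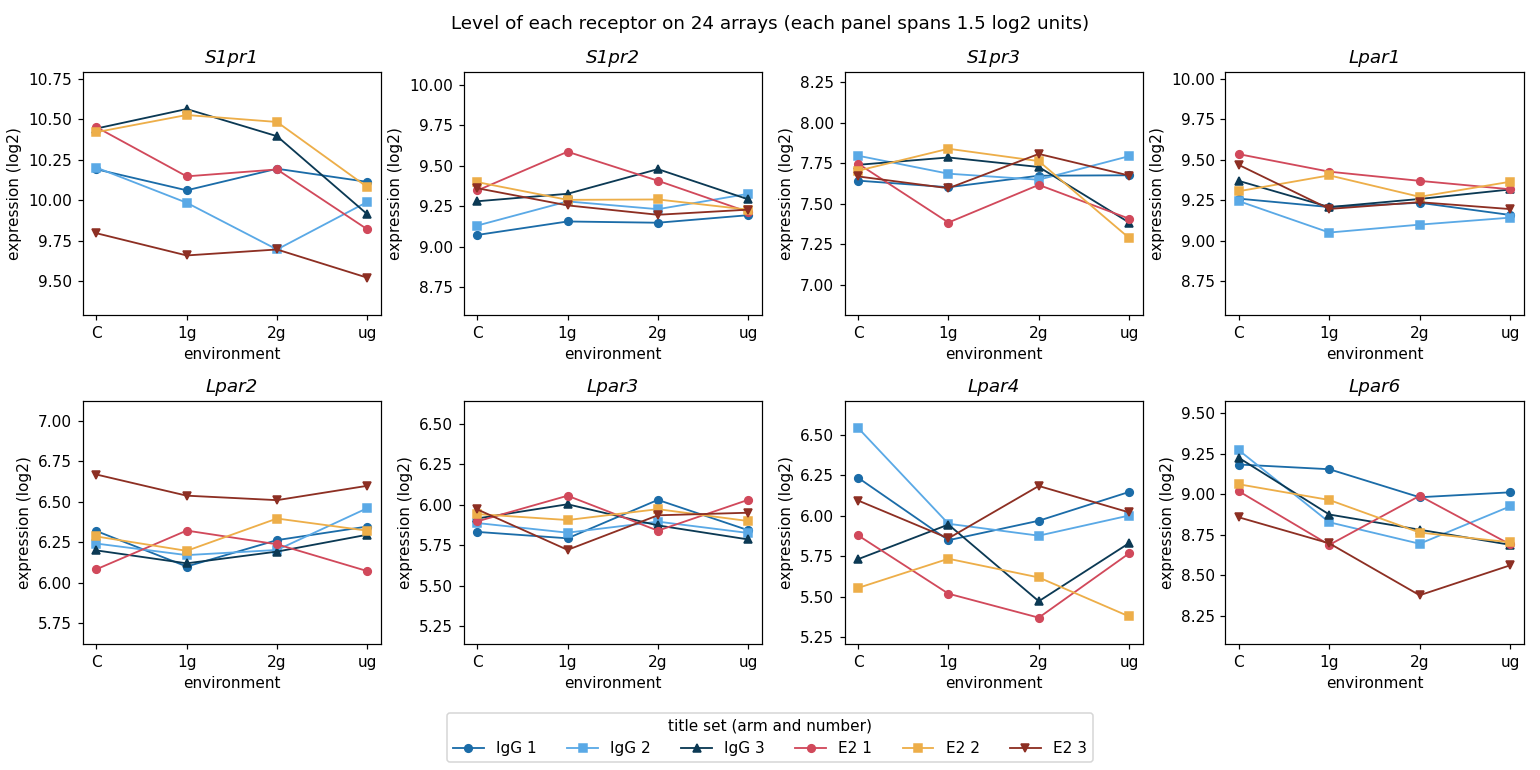
Log2 level of each receptor (vertical axis, the same span in every panel) in the 4 environments (horizontal axis) on all 24 arrays, with 1 line per title set. S1pr1 ends lowest at ug in sets IgG 3, E2 1, E2 2 and E2 3, while Lpar6 starts highest at C in all 6 sets.

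The mean S1pr1 level at ug was 10.01 ± 0.10 (SD, n = 3) against 10.28 ± 0.14 at C in the IgG arm, a difference of -0.27, or 0.828 times the C level. In the E2 arm it was 9.81 ± 0.28 against 10.22 ± 0.37, a difference of -0.41, or 0.750 times. Without IgG 3 the IgG difference was -0.14. The ug array lay below the C array of its own set in 6 of 6 sets, by -0.63 to -0.08. Against the mean of C, 1g and 2g it was lower in 5 of 6 sets, from -0.55 in IgG 3 to 0.03 in IgG 2, and the mean over both arms was -0.27, or -0.17 without IgG 3. Leaving out IgG 3 turned the sign of the difference from 1g and from 2g in the IgG arm, from -0.20 to 0.03 and from -0.09 to 0.11, respectively. Of all genes tested, 6.05% were below C at ug in 6 of 6 sets; S1pr1 and Lpar6 were the 2 receptors that were, which is what they were picked for.

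S1pr1 differed more widely between title sets than between environments. Its set means ran from 9.67 in E2 3 to 10.38 in E2 2, and its environment means over both arms from 9.91 at ug to 10.25 at C. The SD was 0.26 between set means and 0.20 between arrays within sets. Ordered by group mean, S1pr1 was highest in IgG C and lowest in E2 ug, over a span of 0.47. None of the 7 steps between neighbouring groups in that order exceeded the larger SD of the pair.

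The tests that use no ug array did not call S1pr1. They cover 1g against C, 2g against C, 2g against 1g, the 2 antibody arms at C, 1g and 2g, and the difference between arms of the 1g and 2g responses, which with 1 comparison added later makes 12. In limma with Benjamini-Hochberg adjustment over all genes, the lowest unadjusted p of S1pr1 was 0.428 and its lowest adjusted p 0.849. At 1g it differed from C by -0.08 ± 0.24 (SE) in the IgG arm and by -0.11 ± 0.24 in the E2 arm. With the replicate block within arm these errors were 0.11, and S1pr1 was not called either (adjusted p 0.785 and 0.816).

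S1pr3, an S1P receptor that couples to several G proteins including those acting on RhoA, was the member whose pattern lay closest to that of S1pr1. Its levels at C, 1g, 2g and ug were 7.64, 7.60, 7.67 and 7.68 in IgG 1. They were 7.80, 7.69, 7.65 and 7.79 in IgG 2, and 7.74, 7.79, 7.73 and 7.38 in IgG 3. E2 levels were 7.75, 7.38, 7.62 and 7.41 in E2 1. They were 7.70, 7.84, 7.76 and 7.29 in E2 2, and 7.67, 7.60, 7.81 and 7.67 in E2 3. The ug array was low in the sets IgG 3, E2 1 and E2 2, the same sets in which S1pr1 was lowest against its set at ug, and close to its set in the other 3. The difference of ug from the mean of C, 1g and 2g was -0.37, -0.17 and -0.48 in those 3 sets and between -0.02 and 0.08 in the others. After subtracting each set's mean, S1pr3 and S1pr1 correlated with Pearson r = 0.83 over the 24 arrays, which share libraries and the 8 groups.

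**Figure D2:**
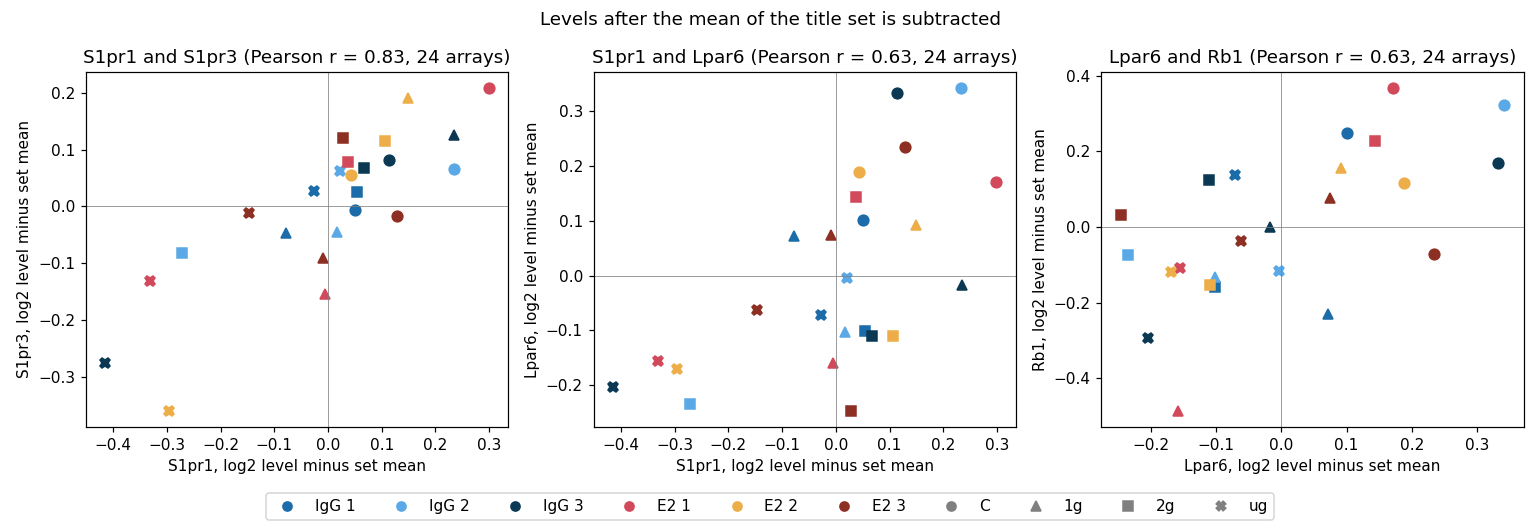
Log2 levels after the mean of each title set is subtracted, on 24 arrays, for S1pr3 against S1pr1, Lpar6 against S1pr1 and Rb1 against Lpar6. Colour marks the title set and shape the environment; the 3 ug arrays of IgG 3, E2 1 and E2 2 lie at the lower left for S1pr1 and S1pr3.

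The low S1pr3 values at ug rested on few arrays. The ug minus 1g difference was -0.07 in the IgG arm and became 0.09 without IgG 3. In the E2 arm it was -0.15 and became 0.05 without E2 2. S1pr3 was not called in any of the 12 tested comparisons (lowest adjusted limma p 0.783).

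S1pr2, the S1P receptor known for activating RhoA and holding back cell migration, lay on opposite sides of its C level at ug in the 2 arms. Its levels at C, 1g, 2g and ug were 9.07, 9.16, 9.15 and 9.19 for IgG 1, 9.13, 9.28, 9.23 and 9.33 for IgG 2, and 9.28, 9.33, 9.48 and 9.29 for IgG 3. E2 levels were 9.35, 9.59, 9.41 and 9.21 for E2 1, 9.40, 9.29, 9.29 and 9.23 for E2 2, and 9.36, 9.26, 9.20 and 9.23 for E2 3. The ug array was above C in 3 of 3 IgG sets and below C in 3 of 3 E2 sets. In IgG 3 the step was small, from 9.28 to 9.29. The share of all genes with such a split between the arms is not given here, so nothing is read from it. The mean ug minus C difference was 0.11 in the IgG arm and -0.14 in the E2 arm, and the E2 ug arrays lay within 9.21 to 9.23, below all E2 C arrays. In the incubator S1pr2 was higher in the E2 arm, 9.37 ± 0.03 against 9.16 ± 0.11 (SD, n = 3), a difference of 0.21 with an unadjusted limma p of 0.0381 and an adjusted p of 0.146. Across all genes 423 (2.92%) were called in that comparison of the arms at C, and 0 of 8 receptors. An unadjusted limma p under 0.05 was found there for 4329 of 14489 genes and for 1 of 8 receptors. The 423 depended on single sets: 0 genes were called without IgG 1 or without IgG 2, and 1355 without E2 1. With the title set as a random replicate block, 0 genes were called. Between the arms at 1g, 2g and ug and on set means 0 genes (0%) were called in limma, with 1804, 626, 1862 and 3129 at an unadjusted p under 0.05.

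Lpar6, a P2Y-like LPA receptor that activates RhoA and is known for its role in hair growth, was lower at every platform position than in the incubator, not at ug alone. Its levels at C, 1g, 2g and ug were 9.18, 9.15, 8.98 and 9.01 in IgG 1. They were 9.27, 8.83, 8.69 and 8.92 in IgG 2. They were 9.22, 8.87, 8.78 and 8.69 in IgG 3. The C array was the highest in all 3 IgG sets, and the IgG C arrays lay above all 9 IgG platform arrays. With the E2 antibody they were 9.02, 8.69, 8.99 and 8.69 in E2 1. They were 9.06, 8.96, 8.76 and 8.70 in E2 2, and 8.86, 8.70, 8.38 and 8.56 in E2 3. The C array was again the highest of each set, and the E2 ug arrays all lay below the E2 C arrays, whereas 1g and 2g overlapped with C. In the IgG arm 7.96% of all genes had all 1g arrays below the C arrays, 8.97% all 2g arrays and 5.69% all ug arrays. The share below C at all 3 positions, or with C highest in every set, is not given here. Lpar6 was picked for its low ug values, so nothing is read from these patterns.

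Lpar6 at ug was 8.87 ± 0.17 (SD, n = 3) against 9.23 ± 0.04 at C in the IgG arm, a difference of -0.35, or 0.784 times. In the E2 arm it was 8.65 ± 0.08 against 8.98 ± 0.11, a difference of -0.33, or 0.797 times. At 1g the difference from C was -0.27 ± 0.13 (SE) in the IgG arm and -0.20 ± 0.13 in the E2 arm. At 2g it was -0.41 ± 0.13 and -0.27 ± 0.13. The ug array lay below the 1g array in 4 of 6 sets and below the 2g array in 3 of 6. The 2g array lay below the 1g array in 5 of 6 sets, with a difference of -0.13 ± 0.13 (SE) in the IgG arm, in the same direction in 3 of 3 sets, and -0.07 ± 0.13 in the E2 arm, where E2 1 went the other way (0.30). Neither was called (adjusted limma p 1.00 in each). Ordered by group mean, the step from IgG C to E2 C (0.25) exceeded the larger SD of the pair and the other 6 steps did not.

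The single comparisons of 1g or 2g with C were not called for Lpar6. They share their C arrays with the ug comparison by which Lpar6 was picked. The strongest was 2g minus C in the IgG arm, with an adjusted p of 0.505 in limma and 0.0855 with the title number as a replicate block within the arm. Without a block 0 genes (0%) were called in any comparison of environments within 1 arm; at an unadjusted p under 0.05 there were 1272 genes at 2g against C in the IgG arm, the highest such count, and 103 at ug against 2g in that arm, the lowest. With the block, 7 genes (0.0483%) were called at 1g against C in the IgG arm, none of them a receptor.

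The mean of 1g and 2g against C over both arms was added after the values had been seen, and it shares its C arrays with the ug comparison by which Lpar6 was picked. In that comparison Lpar6 differed by -0.29 ± 0.08 (SE), or 0.820 times, and was lower in 6 of 6 sets, by -0.51 to -0.12. The adjusted limma p was 0.784 without the block, where 0 genes (0%) were called and 817 had an unadjusted p under 0.05. With the replicate block within arm the error was 0.06 and the adjusted p 0.0409; 47 genes (0.324%) were called, and Lpar6 was the 1 receptor of 8. With the title set as a random replicate block, that is with an estimated correlation, the call was lost (adjusted p 0.113). Over the 20 alternatives the adjusted p ran from 0.0352 to 1.00. The call with the block was kept without E2 1 (0.0352) and lost without E2 2 (0.126), E2 3 (0.0584), IgG 1 (0.0957), IgG 2 (0.367) or IgG 3 (0.0813). Of all genes, 3.98% were lower at the mean of 1g and 2g than at C in 6 of 6 sets, and 3.11% were lower at ug than at the mean of the other environments in 6 of 6 sets; Lpar6 was the 1 receptor in each.

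**Figure D3:**
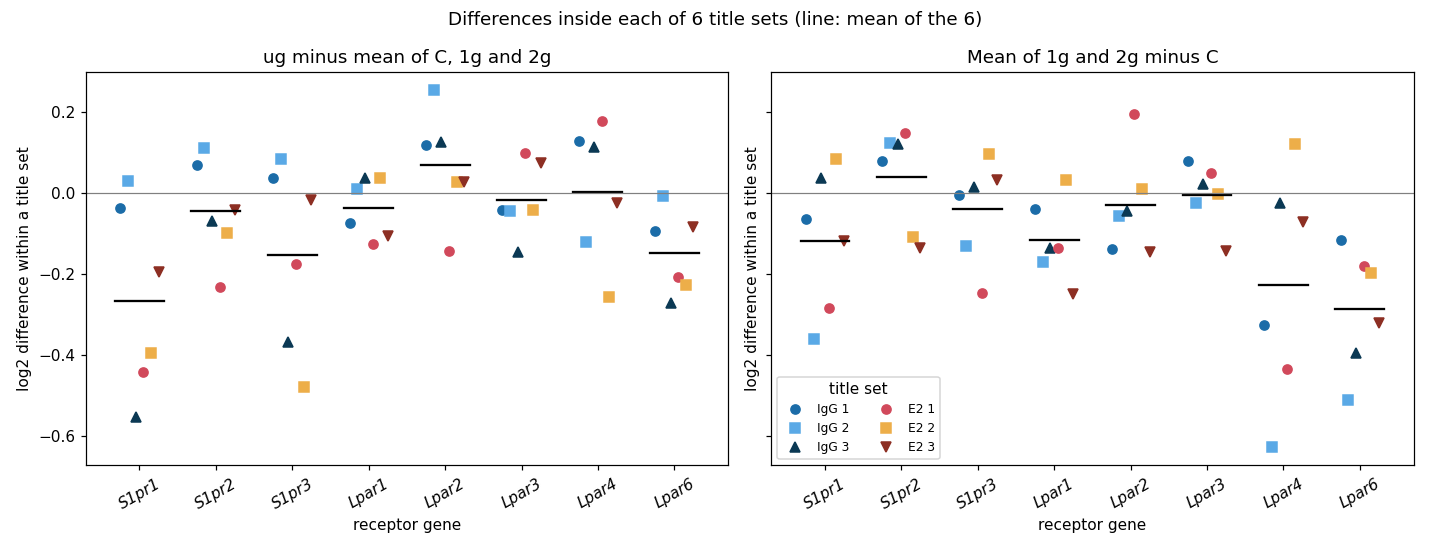
Differences inside each of the 6 title sets (points; horizontal lines are their means) for each receptor: ug minus the mean of C, 1g and 2g on the left, the mean of 1g and 2g minus C on the right, in log2 units. On the right all 6 Lpar6 points lie below 0, between -0.51 and -0.12; on the left S1pr1 spreads from -0.55 to 0.03.

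Lpar6 lies inside another gene. In GRCm38.p6 it spans chr14:73237891-73240358, within the span of Rb1, chr14:73192858-73325951, which encodes the retinoblastoma cell cycle regulator. Whether the arrays' probe sets separate the transcripts of the pair fully was not tested. Rb1 has a probe set of its own, and its mean level at C, 1g, 2g and ug was 9.08, 8.71, 8.79 and 8.74 in the IgG arm and 8.58, 8.36, 8.48 and 8.35 in the E2 arm. The mean of 1g and 2g was below C for Rb1 too, by -0.24 ± 0.11 (SE; adjusted limma p 0.864, and 0.215 with the replicate block), but not in every set: the difference was 0.12 in E2 3. The within-set correlation of Rb1 with Lpar6 was r = 0.63 over the 24 arrays, the same to 2 decimals as that of S1pr1 with Lpar6.

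S1pr1 had no entry among the promoters used. Promoters are shown for Lpar6, picked for its low ug values, and for S1pr3, the member that followed S1pr1. Lpar6 was called only with the replicate block within arm, in the comparison added after the values were seen. That call was lost with the random replicate block. They run from 250 bases before to 50 bases after the gene start, 5′ to 3′ on the gene's strand, in RefSeq's GRCm38.p6 sequence at chr14:73237641-73237940 and chr13:51408368-51408667, both on the plus strand. Capitals mark the matches, on either strand, to the motifs searched: AP-1 (TGANTCA), CRE (TGACGTCA), TEAD (CATTCC), GC box (GGGCGG), KLF (CACCC, on the other strand GGGTG) and the CArG box.
Lpar6: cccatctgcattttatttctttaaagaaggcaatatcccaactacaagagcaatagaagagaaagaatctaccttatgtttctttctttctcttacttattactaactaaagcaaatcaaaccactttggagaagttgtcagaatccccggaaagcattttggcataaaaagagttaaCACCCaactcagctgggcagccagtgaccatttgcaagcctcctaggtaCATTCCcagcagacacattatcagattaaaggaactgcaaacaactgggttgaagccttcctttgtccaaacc
S1pr3: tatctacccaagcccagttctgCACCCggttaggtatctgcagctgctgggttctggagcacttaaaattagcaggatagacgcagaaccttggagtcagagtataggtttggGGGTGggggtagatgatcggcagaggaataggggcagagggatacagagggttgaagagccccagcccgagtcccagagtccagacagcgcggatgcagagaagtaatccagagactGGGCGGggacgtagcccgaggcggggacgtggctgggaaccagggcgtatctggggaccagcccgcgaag
The Lpar6 window holds 1 TEAD match and 1 KLF match, and the S1pr3 window 1 GC box and 2 KLF matches, none overlapping another. Among 32851 promoters of the same length, 14.7% held the TEAD letters, 57.5% the KLF letters and 35.7% the GC box, against 7.81% for AP-1, 1.79% for CRE and 1.63% for the CArG box. A match is a description of the letters and not a bound site.

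Lpar1, a widely expressed LPA receptor known to affect bone mass in mice, had small negative differences from C on the platform, none of them called. Its levels at C, 1g, 2g and ug were 9.26, 9.21, 9.23 and 9.16 for IgG 1, 9.24, 9.05, 9.10 and 9.14 for IgG 2, and 9.37, 9.21, 9.26 and 9.32 for IgG 3. They were 9.53, 9.43, 9.37 and 9.32 for E2 1, 9.31, 9.40, 9.27 and 9.36 for E2 2, and 9.47, 9.20, 9.24 and 9.19 for E2 3. The 2g array was below the C array in 6 of 6 sets, by -0.23 to -0.03. The share of all genes below C at 2g in every set is not given here, so nothing is read from that count. The mean of 1g and 2g minus C was -0.12 ± 0.05 (SE; unadjusted p 0.0336, adjusted p 0.864 in limma and 0.168 with the block). At 1g Lpar1 was higher in the E2 arm by 0.19 ± 0.08, with an adjusted limma p of 0.371.

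Lpar2, an LPA receptor of the same branch as Lpar1, differed more between sets than between environments. Its levels lay between 6.07 and 6.67, and set E2 3 held the highest ones, 6.67, 6.54, 6.51 and 6.60 at C, 1g, 2g and ug. In the IgG arm the 1g arrays (6.10, 6.17 and 6.12) all lay below the C arrays (6.32, 6.24 and 6.20), and the ug arrays were 6.35, 6.46 and 6.30. Its E2 minus IgG difference on set means, which include the ug arrays, was 0.11 ± 0.10 (SE) and became -0.0034 without E2 3.

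Lpar3, known for its role in embryo implantation, and Lpar4, a P2Y-like receptor, were near the detection filter. Lpar3 lay between 5.72 and 6.06 on all 24 arrays. Lpar4 lay between 5.37 and 6.54 and was highest in the IgG C arrays of sets IgG 1 and IgG 2 (6.24 and 6.54), while that of IgG 3 was 5.73. Its 2g minus C difference in the IgG arm, -0.40 ± 0.21 (SE), had an adjusted limma p of 0.601. On set means Lpar3 was the 1 receptor with all E2 sets above all IgG sets (15.4% of all genes were so), and Lpar6 the 1 with all E2 sets below (12.4%). For Lpar6 that arm difference was -0.19 ± 0.09 (SE), and -0.11 without E2 3. Set means include the ug arrays, so these are descriptions.

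**Figure D4:**
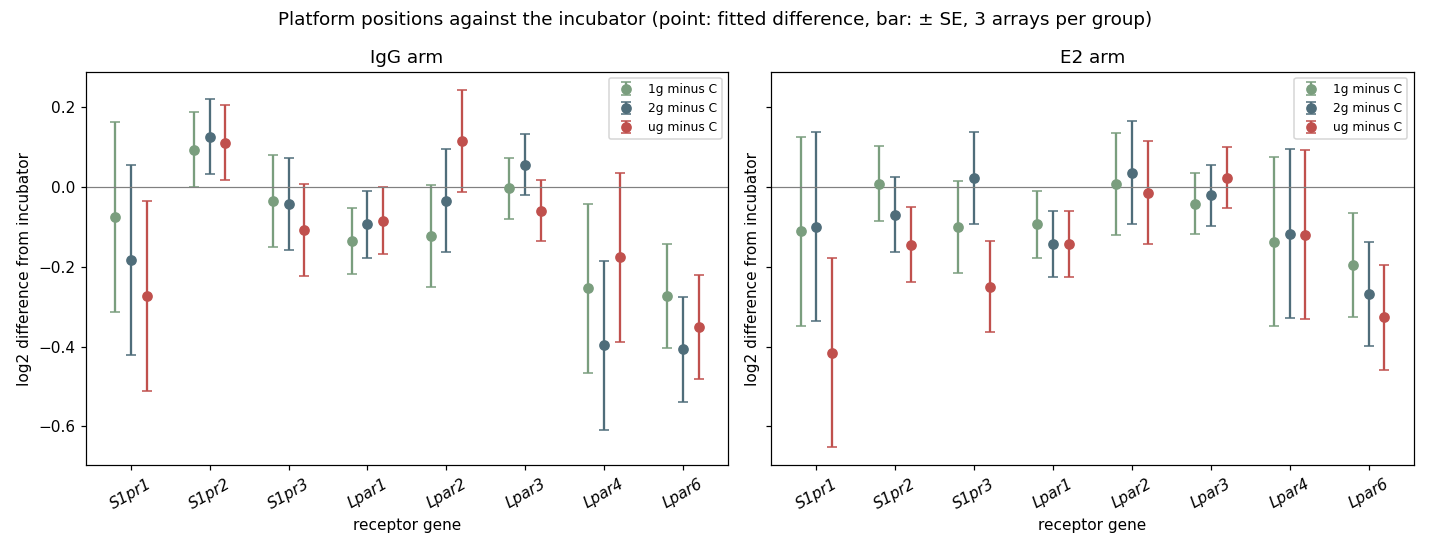
Fitted log2 difference of each platform position from the incubator (vertical axis; bars are ± SE, 3 arrays per group) for the 8 receptors in the IgG arm (left) and the E2 arm (right). Lpar6 lies below 0 at all 3 positions in both arms, from -0.41 to -0.20.

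Across the 8 receptors, 0 were called in the 11 comparisons tested with limma without a block, nor in the added one. At an unadjusted p under 0.05 there were Lpar6 in 3 of the 12, Lpar1 in 2 and S1pr2 in 1. Over all genes such p-values numbered 886 at 1g and 1272 at 2g against C in the IgG arm, and 817 in the added comparison. Between the arms they numbered 4329 at C and 1804 at 1g. The comparisons with C share their C arrays with the ug comparison by which Lpar6 was picked. Receptors whose arrays all lay below the C arrays at 1g in the IgG arm were Lpar1, Lpar2 and Lpar6 (7.96% of all genes), and at 2g Lpar6 (8.97%). In the E2 arm there were 0 at 1g and 0 at 2g, beside 3.69% and 2.82% of genes. At ug these were S1pr1 and Lpar6 in the IgG arm (5.69% of genes) and S1pr2 and Lpar6 in the E2 arm (5.25%), from which nothing is read. The median receptor difference at ug minus C was -0.10 in the IgG arm and -0.14 in the E2 arm, beside -0.00 and -0.03 over all genes. For the mean of 1g and 2g minus C the median receptor difference was -0.08, with 7 of 8 receptors lower, beside -0.00 and 50.7% of genes lower. These medians include S1pr1 and Lpar6, picked for their low ug values, and use the same C arrays. Nothing about the receptors as a group is read from them. The difference between the arms of the 1g and of the 2g response was called for 0 receptors and 0 genes (0%), with 681 and 866 genes at an unadjusted p under 0.05; for Lpar6 it was 0.08 ± 0.18 and 0.14 ± 0.18 (SE).

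The other S1P receptors on the array, S1pr4 and S1pr5, are known mainly from blood cells and from nerve and natural killer cells. S1pr4 lay between 6.62 and 7.05 and S1pr5 between 6.05 and 6.55, and neither was called in a comparison. Their ug arrays spanned 6.81 to 6.93 and 6.29 to 6.37, inside the range of the other environments. Gpr34, Gpr174 and P2ry10, receptors for the related lipid lysophosphatidylserine, did not reach the filter on any array. Lpar5 was not analysed here.

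The genes that make, carry and relay these lipids' signals were listed in 7 groups of 57 genes, of which 47 were tested. None was called in limma without a block in any of 21 comparisons. At an unadjusted p under 0.05 there were 3 (Egr1, Rgs2 and Sgpp1) for ug against the other environments over both arms. Of all 14489 genes 678 had such a p there. In the comparison of ug with the mean of C, 1g and 2g over both arms, 1 gene of all (0.00690%) was called without a block, A3galt2, at 0.85 ± 0.13 (SE). With the replicate block 53 genes (0.366%) were called, 39 higher and 14 lower, and Egr1 was the 1 pathway gene among them.

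Among the 11 tested genes of S1P making, breakdown and export, 6 were higher and 5 lower at ug, with a median of 0.00 beside -0.01 over all genes, and 0 were called. The farthest was Sgpp1, the phosphatase that returns S1P to sphingosine, at -0.14 ± 0.05 (SE; unadjusted p 0.0199, adjusted limma p 0.871). The kinases that make S1P, Sphk1 and Sphk2, differed by 0.02 ± 0.09 and -0.01 ± 0.05. Among the 7 tested genes of LPA making and breakdown 0 were called, and the lipid phosphatase Plpp3 differed by 0.02 ± 0.07. Enpp2, which encodes the LPA-making enzyme autotaxin, was not analysed here.

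Of 6 tested G protein genes and 7 tested genes of the RhoA and phospholipase relay, 0 were called. Gna12 and Gna13, whose proteins link the receptors to RhoA, differed by 0.02 ± 0.06 and 0.01 ± 0.04 (SE), and Rhoa by -0.02 ± 0.02. Of the 3 known regulators of S1pr1, 0 were called. Klf2, a transcription factor that switches S1pr1 on in lymphocytes, differed by 0.08 ± 0.07, Foxo1 by -0.07 ± 0.10 and Stat3 by 0.00 ± 0.11.

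Of the 6 genes that S1P and LPA are known to switch on, 0 were called at ug without a block. Egr1, an immediate early transcription factor, was called with the replicate block within arm and with the title set as a random replicate block. Its ug levels were 9.71, 9.11 and 10.62 in IgG 1, 2 and 3 and 10.24, 11.02 and 10.09 in E2 1, 2 and 3. The C levels were 9.20, 8.96 and 9.70 in the IgG arm and 9.24, 9.66 and 9.82 in the E2 arm. The ug array was above C in all 6 sets, and the E2 ug arrays all lay above the E2 arrays of the other environments. The share of all genes that did so is not given here, and Egr1 was listed with earlier results of these data known. Against the mean of C, 1g and 2g, Egr1 differed by 0.76 ± 0.19 (SE), and was higher in 5 of 6 sets. The adjusted limma p was 0.312 without a block and 0.0200 with the replicate block, and ran from 1.73e-04 to 1.00 over 19 alternatives. With the title set as a random replicate block the adjusted limma p was 0.0396. With the block within arm the call was kept without E2 1 (0.0235) or IgG 2 (1.73e-04). It was lost without E2 2 (0.313), E2 3 (0.0509), IgG 1 (0.130) or IgG 3 (0.314). Hbegf, a growth factor gene, differed by 0.24 ± 0.12 and was not called. The YAP targets Ccn1 and Ccn2 differed by 0.06 ± 0.14 and -0.11 ± 0.08.

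Among the 7 tested genes of receptor desensitisation 0 were called with all arrays. Rgs2, which shortens signals of phospholipase-coupled G proteins, stood farthest out at 0.48 ± 0.12 (SE; adjusted limma p 0.312, and 0.101 with the block). It was called with the block when IgG 2 was left out (0.0265). Its ug levels were 6.21, 6.06 and 6.82 in the IgG sets and 6.68, 7.19 and 6.56 in the E2 sets, so the E2 ug arrays and IgG 3 were high.

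The title sets that had low S1pr1 at ug had high Egr1 at ug, a pattern noticed after the values were seen. Against the mean of its set's other environments, S1pr1 was -0.55, -0.44 and -0.40 in IgG 3, E2 1 and E2 2, and Egr1 was 1.07, 0.94 and 1.31 there. In E2 3 the values were -0.20 for S1pr1 and 0.84 for Egr1. In IgG 1 they were -0.04 and 0.56, and in IgG 2 they were 0.03 and -0.17. Lpar6 had its 3 largest differences in the first 3 sets as well, -0.27, -0.21 and -0.23, against -0.08 in E2 3, -0.09 in IgG 1 and -0.01 in IgG 2. No test was made of this pattern.

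The genes whose pattern over the 24 arrays was most like that of a receptor were ranked by Pearson correlation after the set means were subtracted. For S1pr1 they were Fam114a1 (r = 0.904), Fam160b1 (0.902), Fbxo21 (0.882), Trappc6b (0.881) and Swap70 (0.869). Their own differences of ug from the other environments were smaller than that of S1pr1, from -0.14 to -0.10. By rank correlation none of these 5 stayed among the nearest 5, with quantile normalization 3 did, and without subtracting the set means 1 did. For Lpar6 the nearest were 1600012H06Rik (0.872), Wdr75 (0.869), Trim13 (0.860), Ctps2 (0.856) and Stx12 (0.855), of which 4 stayed by rank correlation, 4 with quantile normalization and 1 without subtracting the set means. Their differences of the mean of 1g and 2g from C ran from -0.25 in Trim13 to -0.09 in Ctps2. These correlations are a description over arrays that share groups and processing.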

How the data were processed

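Total RNA of MLO-Y4 cells was labelled with biotin and hybridised to 24 one-colour Affymetrix arrays, per the labels' protocols. The authors deposited 1 table of log2 values, from 2.36 to 14.06, with array medians between 6.48 and 6.65; MAS5 is named in the submitters' processing notes, and the scaling and its version are not given in the sources used here. Array number limits the precision.

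The probe annotation gave 21789 of 35556 probe sets 1 gene symbol and 1621 several, and probe sets with several were named nowhere. The brightest probe set of a gene was used if it reached the array's 40th percentile on at least 3 arrays, leaving 14489 genes. limma 3.58.1 (R 4.3.3) was fitted to the 8 group means with a variance trend and no block, and p-values were adjusted over all genes at 0.05. Title numbers were checked as pairs within an arm: array deviations from group means with one number correlated at 0.246 to 0.756 in 18 of 18 IgG pairs and at 0.195 to 0.812 in 18 of 18 E2 pairs. The pairing is read from the values and not stated in the labels. The code was tested on simulated data.

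The members and gene lists were chosen with earlier results of these data known. Named genes are the 8 receptors, the other receptors listed, Gja1, Rb1, those called or with the smallest p in each pathway list, and the 5 nearest in pattern to S1pr1 and to Lpar6; Pecam1, A3galt2 and some further pathway genes were named after their values were seen. Alternatives were replicate blocks, quantile normalization, no filter, the mean of a gene's probe sets, no trend, a fit to just the groups in question, and dropping every set once. The mean of 1g and 2g against C, and the block together with a set left out, were added after the data were seen. Receptor p-values of comparisons that use ug arrays are not given.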

Additional observations from a re-analysis of the deposited data

Results flagged for a closer look

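The ug minus C difference of S1pr2 had opposite signs in the 2 arms in every set: 0.12, 0.20 and 0.01 in IgG 1, 2 and 3, and -0.13, -0.17 and -0.13 in E2 1, 2 and 3. The E2 difference minus the IgG difference was -0.25. This difference was not tested, since S1pr2 was set among the members with the ug values known. The share of all genes with opposite signs in the arms in every set is not given here.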

How the results depend on the processing

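The 11 comparisons of the 8 receptors that use no ug array, without the added one, kept 0 calls under every alternative run. In the added comparison, the mean of 1g and 2g minus C, the replicate block within arm gave 1 receptor called, Lpar6, as did the block without set E2 1 (1). The number of pathway genes called at ug against the other environments was 0, and became 1 with the replicate block within arm, 1 with the title set as a random replicate block, 1 with the block without set E2 1 and 2 with the block without set IgG 2. S1pr3 at ug minus 1g reversed in the IgG arm without set IgG 3 (0.091; leave-one-out range -0.16 to 0.091) and in the E2 arm without set E2 2 (0.051; range -0.26 to 0.051). The blocks changed no other receptor call. Lpar1 at ug minus C in the E2 arm became -0.24 without set E2 2.

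Counts over all genes moved more. For E2 minus IgG at C the 423 genes became 46 with quantile normalization, 60 without the filter, 0 with only the arrays compared, 0 with the random replicate block, and 0 to 1355 when a set was left out. Without E2 3, 773 genes were called between the arms at 1g, 736 on set means and 1 at ug. For ug against the other environments the 1 gene became 53 with the block within arm, 20 with the random block, 0 to 12 when a set was left out, 0 to 125 with the block and a set left out, and 0 with numbers paired across the arms, quantile normalization or no trend. For the mean of 1g and 2g minus C the 0 genes became 47 with the block within arm, 6 with the random block and 3 to 100 with the block and a set left out. At 1g minus C in the IgG arm the random block gave 3, and for the arm difference at 1g it gave 2. The cause was not tested. Lpar3 and Lpar4 lie near the filter, which limits what their values show.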
